A study of Mus musculus with 32 samples.

Results

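Extracellular vesicles (EVs) were caught on cellulose nanofiber (CNF) sheets laid on 2 places of the peritoneal cavity of mice 4 days after ovarian cancer cells had been placed in the ovary, and their miRNAs were compared between the liver surface and the pelvic peritoneum. The comparison holds 10 of the 32 libraries of the series, 5 from the liver surface and 5 from the pelvic peritoneum, chosen by their titles. All were EV samples from female mice of the strain BALB/cSlc-nu/nu, 8 weeks old and lacking T cells, with orthotopic transplantation of ID8-T6 cells, a subclone of the mouse ovarian carcinoma line ID8, into the left ovarian bursa. The day 0 libraries of the same sites (5 each) have the same strain and transplantation in their labels, which do not state whether the cells were already in place when the sheets were laid. The sample titles say diaphragm where the study writes liver surface, and the study's name is used here. Of 1513 miRNAs in the table, 1068 had reads in at least 1 of the 10 libraries, and 424 reached 10 RPM (reads per 1e+06 reads of the library) in at least 5 of them and were tested.

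miRNAs are short RNAs that pair through their seed, the bases near the 5′ end, with messenger RNAs and lower their translation or stability. EVs carry miRNAs of the cells that release them, and several miRNAs are made mainly in 1 cell type, such as miR-122-5p in hepatocytes, miR-126a-3p in endothelium and miR-451a in red blood cells. The miRNA genes inside the Hox clusters are switched on, like the Hox genes around them, by position along the body axis. These are bulk measurements, in which fewer EVs of a cell type and less of a miRNA in each EV cannot be told apart.

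The miRNAs on which the site comparison turned are shown 5′ to 3′ with the seed (bases 2 to 8) in capitals, as RefSeq gives them for the build GRCm38.p6. Of the 1513 miRNAs, 1274 matched a RefSeq mature sequence by name, and of the 424 tested, 369. The first set are products of the Hox clusters, the second of the transcript Dnm3os, the third of the let-7 family and the fourth of the imprinted Dlk1-Dio3 region, with miR-6239 last.
miR-10b-5p: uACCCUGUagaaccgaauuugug
miR-10a-5p: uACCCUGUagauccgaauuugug
miR-196a-5p: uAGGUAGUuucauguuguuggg
miR-196b-5p: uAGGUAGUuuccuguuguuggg
miR-615-3p: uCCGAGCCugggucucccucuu
miR-214-3p: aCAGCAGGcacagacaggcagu
miR-199a-3p: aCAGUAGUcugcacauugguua
miR-199a-5p: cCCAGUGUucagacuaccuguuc
miR-98-5p: uGAGGUAGuaaguuguauuguu
let-7b-5p: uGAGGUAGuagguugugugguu
miR-136-3p: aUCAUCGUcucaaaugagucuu
miR-3071-5p: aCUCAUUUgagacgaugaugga
miR-434-3p: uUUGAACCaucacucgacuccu
miR-6239: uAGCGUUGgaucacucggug

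Within these sets miR-10a-5p and miR-10b-5p shared a seed and differed by 1 base, U12A counted from the 5′ end and from miR-10a-5p to miR-10b-5p. The pair miR-196a-5p and miR-196b-5p also shared a seed and differed by A12C, from miR-196a-5p to miR-196b-5p. miR-10b-5p lies at chr2:74726074-74726096 on the plus strand, in an intron of Hoxd3 and Hoxd4, and miR-10a-5p at chr11:96317186-96317208 on the plus strand, outside the gene models of GENCODE M21. miR-196a-5p comes from chr11:96265187-96265208, outside gene models, and from chr15:102973365-102973386, in an intron of Hoxc5, while miR-196b-5p lies at chr6:52230129-52230150 on the minus strand, in an exon of Hoxa9. The let-7 members miR-98-5p and let-7b-5p shared the seed of that family. The reads were assigned to miRNA names and not to loci, so that a miRNA made at several places has 1 value.

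Of the 424 miRNAs tested, 0 were called higher (0%) and 0 lower (0%) by limma on the liver surface than on the pelvic peritoneum with the thresholds of adjusted p under 0.05 and a log2 ratio, taken of RPM + 10, beyond 1 in either direction. At an unadjusted p under 0.05 there were 17 higher (4.01%) and 23 lower (5.42%). edgeR on the recovered reads also called 0 (46 at an unadjusted p under 0.05), while DESeq2 called 3 higher (0.737%) and 6 lower (1.47%) of 407. The sheets of both sites share the numbers 1 to 5, and sheets of numbers 2, 4 and 5 deviated together. Their deviations from the site means correlated at 0.442 to 0.737 between the sites. For number 3 this was 0.170, and for number 1 it was 0.119, below its correlation with another number (0.123). With the number as a block limma called 2 higher (0.472%) and 5 lower (1.18%). The 2 were miR-122-5p and miR-122b-3p, and the 5 were miR-10b-5p, miR-136-3p, miR-434-3p, miR-3071-5p and miR-6239. The labels do not state whether sheets of 1 number come from 1 mouse, and the reporting summary mentions repeats from the same spot, so a p-value here reflects how much these sheets vary and may miss the variation between animals.

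**Figure D1:**
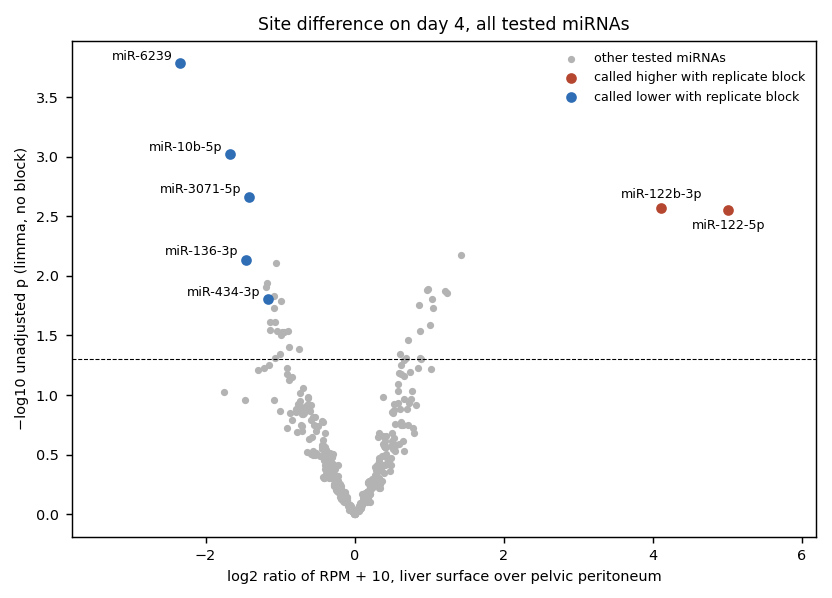
Each point is 1 of the 424 miRNAs tested on day 4, with the log2 ratio of RPM + 10 (liver surface over pelvic peritoneum) on the horizontal axis and −log10 of the unadjusted limma p on the vertical axis, and the dashed line at the unadjusted threshold. The 2 miRNAs called higher with the replicate number as a block lie far to the right at 5.02 and 4.12, and the 5 called lower lie at the left between -2.34 and -1.17.

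Liver surface libraries held 176124 to 661582 reads (median 540687) and pelvic libraries 132483 to 410549 (median 303743), the deeper sheet of each number being that of the liver surface. At these depths 10 RPM is 1.32 to 6.62 reads. The day 0 libraries were all deeper, with 1053028 to 2540577 reads on the liver surface and 1022869 to 1682346 on the pelvic peritoneum. Day and depth thus go together in every comparison of the days, and the part of depth was not tested. When every day 4 library was thinned to 132483 reads limma again called 0 of 401 tested, with 30 at an unadjusted p under 0.05. Across the 424 miRNAs the rank correlation averaged 0.912 between liver surface sheets (10 pairs) and 0.895 between pelvic sheets (10 pairs). Between the sites it averaged 0.923 for sheets of the same number (5 pairs) and 0.881 for sheets of other numbers (20 pairs), values over miRNAs that share a library and are no replicates. The most abundant miRNA, miR-21a-5p, which is found in most tissues and is often raised in tumors, made up 231282, 245028, 239496, 290682 and 185292 RPM on the liver surface and 158657, 267408, 228067, 231031 and 108971 RPM on the pelvic peritoneum (sheets 1 to 5). It overlapped between the sites, with a log2 ratio of 0.32 (SE 0.25, adjusted p = 0.790 in limma).

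The hepatocyte miRNA miR-122-5p was higher on the liver surface in every numbered pair. In liver surface sheets 1 to 5 it stood at 8711, 2400, 307, 94.1 and 22240 RPM, and in pelvic sheets 1 to 5 at 5.57, 17.1, 0, 72.4 and 1237 RPM. Liver surface sheets 3 and 4 lay below pelvic sheet 5, so the sites overlapped, and sheet 5 was the highest of its site at both places. The log2 ratio of RPM + 10 was 5.02 (SE 1.41). It did not pass in limma (adjusted p = 0.235) and passed once the replicate number was fitted as a block (adjusted p = 0.00934). Over all alternatives its adjusted p ran between 0.00934 and 1. The upper end came from limma on replicates 2 and 5 alone, as it did for miR-10b-5p and miR-136-3p below. Without the block miR-122-5p passed when liver surface sheet 4 (log2 ratio 6.03, adjusted p = 0.0434 in limma) or pelvic sheet 5 (6.15, adjusted p = 0.0436 in limma) was left out.

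Other hepatocyte miRNAs were measured beside miR-122-5p. miR-122b-3p, the most abundant of them, averaged 1358 RPM on the liver surface, against 56.8 RPM on the pelvic peritoneum (39 of 43 reads in sheet 5, 1 in each other sheet). It reached 10 RPM in every liver surface sheet and otherwise only in pelvic sheet 5 (268 RPM). The filter thus favored this difference, as miR-122b-3p passed it through the liver surface sheets where it was high. It had a log2 ratio of 4.12 (SE 1.15, adjusted p = 0.235 in limma, with the block 0.00504), and its level was 0.194 to 0.315 of that of miR-122-5p in the 6 libraries with at least 10 reads of each, and whether the same reads count for both names cannot be told apart. The other strand of the precursor, miR-122-3p, had 36 reads on 4 liver surface sheets and 0 on the pelvic sheets, whose 3 reads would be 2.22 RPM over the 5 libraries. Its mean on the liver surface (13.1 RPM) was 5.92-fold this bound, and 4.06-fold without liver surface sheet 5. The bound covers the counting error of the pelvic reads only, not that of the 36 liver surface reads, so neither value is a lower limit. In pelvic sheets 3 and 5 alone, 3 reads would be 22.6 and 20.6 RPM, above that mean. miR-802-5p, a second miRNA of hepatocytes, had 7 reads on the liver surface sheets and 0 on the pelvic sheets, and neither was tested. The 5 listed hepatocyte miRNAs summed to 122.4 to 26588 RPM on the liver surface (median 2919) and to 7.55 to 1505 RPM on the pelvic peritoneum (median 19.5). Their tested members numbered 2, and on day 0 the same list summed to 1560 to 211216 RPM on the liver surface (median 27134) and 11.7 to 474 RPM on the pelvic peritoneum (median 49.1). The site difference of miR-122-5p on day 4 minus that on day 0 was -2.91 (SE 2.04, unadjusted p = 0.168, adjusted p = 0.890).

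**Figure D2:**
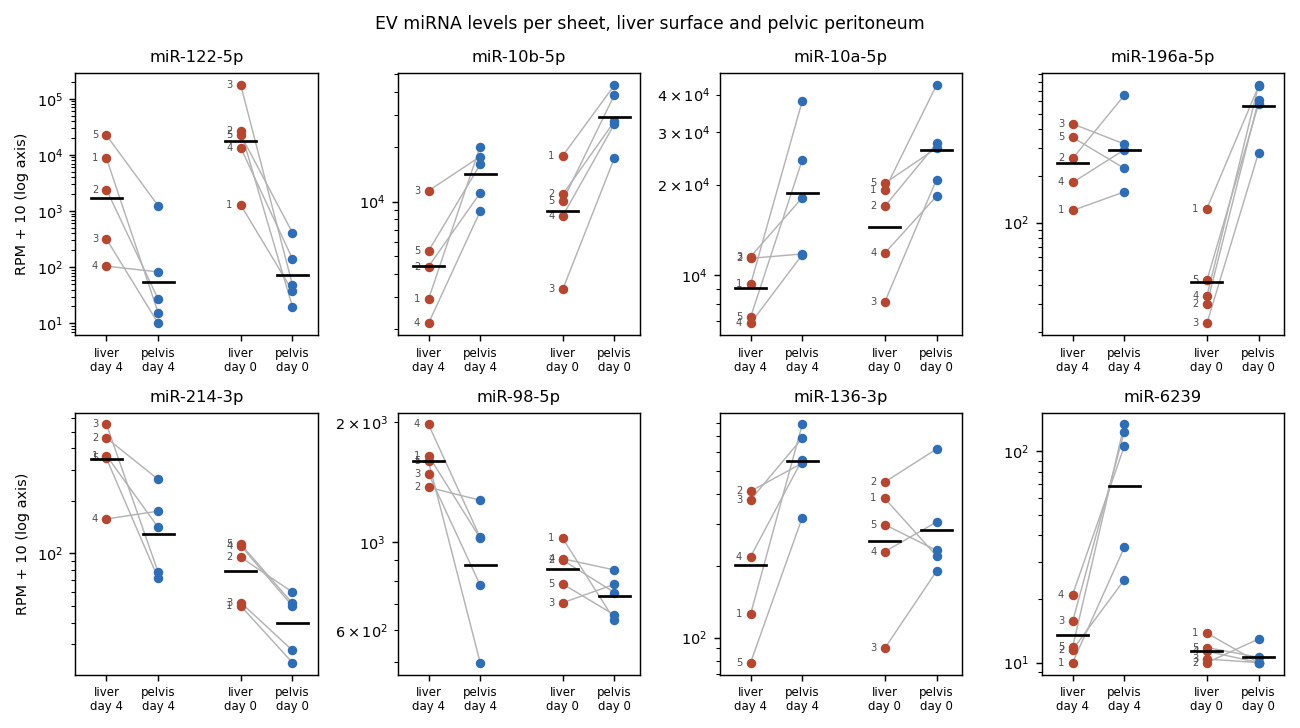
Level of 8 miRNAs in every sheet as RPM + 10 on a log axis, for the liver surface (red) and the pelvic peritoneum (blue) on day 4 (left) and day 0 (right). Grey lines join sheets with the same number, the number stands at the liver surface point, and black bars are means of the log values. miR-122-5p lies higher on the liver surface and miR-10b-5p lower in all 5 numbered pairs of day 4, while miR-196a-5p is apart between the sites on day 0 and mixed on day 4.

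Of the 7 tested miRNAs of the Hox clusters all had a negative log2 ratio (median -1.04, against -0.06 over all 424), and 4 of 7 had an unadjusted p under 0.05, where 5.42% of all tested miRNAs were lower at that level. After adjustment limma called 0, and the fit with the block and DESeq2 called miR-10b-5p alone (1.18% and 1.47% of all they tested were called lower). The summed level of the list was 9560 to 24613 RPM on the liver surface (median 13559) and 21696 to 59187 RPM on the pelvic peritoneum (median 37069).

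miR-10b-5p, from the Hoxd cluster, stood at 2899, 4385, 11452, 2132 and 5341 RPM in liver surface sheets 1 to 5. In pelvic sheets 1 to 5 it stood at 20069, 11141, 17678, 8836 and 15988 RPM. Each liver surface sheet was lower than the pelvic sheet of its number, and the sites overlapped only because liver surface sheet 3 lay above pelvic sheets 2 and 4. The log2 ratio was -1.68 (SE 0.41, adjusted p = 0.202 in limma, with the block 0.00504, with DESeq2 0.0442, range over all alternatives 0.00504 to 1). Without liver surface sheet 3 it passed in limma at -2.02 (adjusted p = 0.0343). Its other strand, miR-10b-3p, averaged 39.8 ± 38.5 RPM on the liver surface, against 91.0 ± 48.5 RPM on pelvic sheets (SD, n = 5 sheets each), with a log2 ratio of -1.13 (SE 0.47, adjusted p = 0.421 in limma).

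miR-10a-5p, from the Hoxb cluster, was among the 3 tested miRNAs whose pelvic sheets all lay above all liver surface sheets (0.708% of 424). It stood at 9273, 11341, 11492, 6877 and 7209 RPM in liver surface sheets 1 to 5 and at 38028, 11731, 18078, 11658 and 24181 RPM in pelvic sheets 1 to 5. The gap was narrow, between 11492 and 11658 RPM, and pelvic sheets 2 and 4 lay close to the liver surface. Its log2 ratio of -1.05 (SE 0.34) did not pass in limma (adjusted p = 0.375) or with the block (0.0658). The other strand, miR-10a-3p, averaged 83.8 ± 31.5 RPM on the liver surface, against 188 ± 82.8 RPM on pelvic sheets (SD, n = 5 each, log2 ratio -1.04, SE 0.43, adjusted p = 0.421 in limma). All 4 strands of the miR-10 pair were lower on the liver surface in 5 of 5 numbered pairs, as 9.91% of tested miRNAs were. miR-10a-5p and miR-10b-5p differ by 1 base and may share reads, so the 4 are not independent measurements.

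The Hox cluster miRNAs other than the miR-10 pair overlapped between the sites on day 4. miR-196a-5p stood at 110, 248, 420, 171 and 342 RPM in liver surface sheets 1 to 5 and at 148, 645, 309, 283 and 213 RPM in pelvic sheets 1 to 5. Pelvic sheet 2 was the highest, and the liver surface sheet was the lower of its number in 3 of 5 pairs. On day 0 the liver surface sheets had held 12.6 to 113 RPM (median 23.8) and the pelvic sheets 271 to 752 RPM (median 602), with no overlap. The log2 ratio was -0.27 (SE 0.45, adjusted p = 0.947 in limma) on day 4 and -3.77 (SE 0.45, adjusted p = 0.00108 in limma) on day 0.

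This change in the site difference was called in the test of site by day, at 3.50 (SE 0.65, adjusted p = 0.0103 in limma), 1 of 2 calls among 446 miRNAs (0.448%). Leaving out replicate 3, 4 or 5 ended the call. With a block that joined the sheets of 1 number on both days, the adjusted p in limma was 0.0229 (SE 0.69). The labels do not state whether sheets of 1 number belong together across the days, so this block adds little to the call. miR-196b-5p averaged 285 ± 153 RPM on the liver surface, against 294 ± 122.3 RPM on pelvic sheets (SD, n = 5 each) with a log2 ratio of -0.12 on day 4 and -1.85 on day 0, a difference of 1.74 that did not pass (SE 0.52, unadjusted p = 0.00313, adjusted p = 0.349). miR-615-3p averaged 278 ± 172 RPM on the liver surface, against 332 ± 90.6 RPM on pelvic sheets (SD, n = 5 each). Its log2 ratios were -0.42 on day 4 and -1.75 on day 0 (difference 1.34, SE 0.51, adjusted p = 0.659 in limma). For miR-10b-5p, called on both days by limma with the block, the days gave -1.68 and -1.73 (difference 0.05, SE 0.61) and for miR-10a-5p -1.05 and -0.85 (difference -0.20, SE 0.47).

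**Figure D3:**
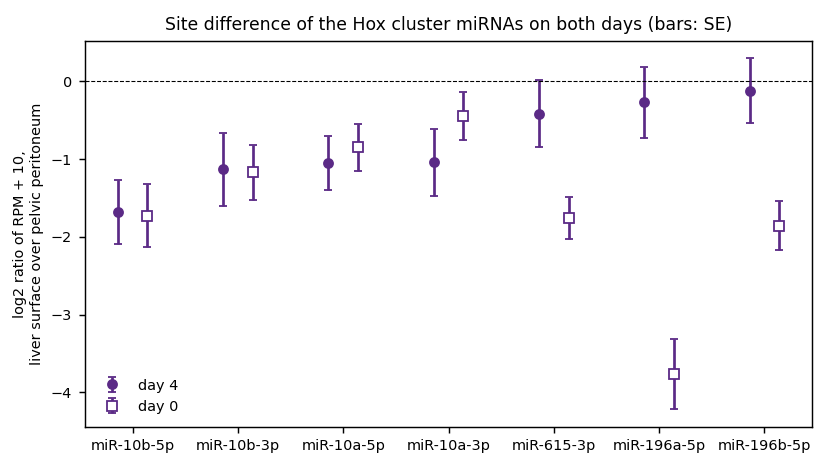
Log2 ratio of RPM + 10 (liver surface over pelvic peritoneum) of the 7 tested Hox cluster miRNAs on day 4 (filled circles) and day 0 (open squares), with bars for the SE of the limma fit. The strands of miR-10a and miR-10b lie between -1.68 and -1.04 on day 4, while miR-615-3p, miR-196a-5p and miR-196b-5p lie between -0.42 and -0.12 on day 4 and between -3.77 and -1.75 on day 0.

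Of the 6 miRNAs that limma called between the sites on day 0 (3 higher and 3 lower of 385, 0.779% each), 5 were tested on day 4. These were miR-122-5p, miR-122b-3p, miR-196a-5p, miR-196b-5p and miR-615-3p. All 5 had the same direction on day 4 as on day 0 in limma, but miR-196b-5p was positive in edgeR, in DESeq2 and in some fits with libraries left out, and miR-196a-5p was positive without pelvic sheet 2. limma called 0 of the 5 and the fit with the block called 2, miR-122-5p and miR-122b-3p. With the block, 16 higher (4.16%) and 5 lower (1.3%) of 385 were called on day 0. Those added were both strands of miR-10b, miR-126a and miR-144, the 4 strands of miR-486a and miR-486b, miR-126b-3p, miR-199a-5p, miR-31-5p, miR-451a and miR-93-5p. Of the 21 called on day 0 with the block 20 were tested on day 4, and 15 of the 20 had the same direction there. The 5 with the opposite direction were the red blood cell miRNAs miR-451a and the strands of miR-486a and miR-486b. Of these miR-486a-5p and miR-486b-5p had nearly the same values in each day 4 library (ratio 0.985 to 1.01) and count as 1 measurement. On day 4, 3 of the 20 were called with the block. The median log2 ratio over all tested miRNAs was -0.06 on day 4 and -0.15 on day 0.

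miRNAs listed for fibroblasts and other mesenchymal cells leaned the other way, mainly those of miR-199 and miR-214. Of 10 tested, 9 had a positive log2 ratio (median 0.70, against -0.06 over all), as 43.9% of all tested miRNAs did. An unadjusted p under 0.05 was reached by 5, where 4.01% of all tested miRNAs were higher at that level. All 5 were strands of miR-199a, miR-199b and miR-214, among them miR-199a-3p and miR-199b-3p of the same sequence. miR-199b-5p and the strands of miR-143 and miR-145a did not reach it. On day 0 the list had a median of 0.20, with 7 positive and 3 negative. On day 4 limma called 0 with or without the block, and DESeq2 called 3 (0.737% of all it tested were called higher). These were miR-214-3p, miR-199a-3p and miR-199a-5p. miR-214-3p and a copy of miR-199a lie in exons of Dnm3os on the plus strand of chromosome 1, at chr1:162223438-162223459 for miR-214-3p, chr1:162217883-162217904 for miR-199a-3p and chr1:162217844-162217866 for miR-199a-5p.

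miR-214-3p stood at 354, 449, 539, 147 and 340 RPM in liver surface sheets 1 to 5 and at 131, 256, 67.9, 165 and 61.9 RPM in pelvic sheets 1 to 5. Liver surface sheet 4 lay among the pelvic sheets, and the other liver surface sheets lay above all of them. Its log2 ratio of 1.42 (SE 0.45) had an adjusted p in limma of 0.375, with the block 0.0689 and with DESeq2 0.0442 (range over all alternatives 0.0442 to 1). miR-199a-5p stood at 2225, 2491, 3463, 1084 and 1838 RPM in liver surface sheets 1 to 5 and at 910, 1693, 777, 1350 and 619 RPM in pelvic sheets 1 to 5. Again sheet 4 of the liver surface fell within the pelvic range, and the log2 ratio was 1.04 (SE 0.38, adjusted p = 0.375 in limma, with DESeq2 0.0442). miR-199a-3p and miR-199b-3p have the same sequence and had nearly the same values in each library (ratio 0.986 to 1.05), with log2 ratios of 0.99 and 0.98 (SE 0.35 each), and count as 1 measurement.

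Members of the let-7 family, which restrain growth genes and increase as tissues mature, were described by their guide strands. The 9 tested all had a positive log2 ratio, as 43.9% of all tested miRNAs did, with a median log2 ratio of 0.59 (0.66 after median-of-ratios scaling) on day 4 and -0.05 on day 0. The 9 share a seed, and reads were matched with 2 mismatches tolerated. Whether some reads of 1 member count for another cannot be told apart, so the 9 are not independent measurements. Of these 3 had an unadjusted p under 0.05, where 4.01% of all tested miRNAs were higher at that level, and 5 were higher on the liver surface in 5 of 5 numbered pairs, as 8.02% of all tested miRNAs were. The passenger strands did not share the direction, and of 9 tested 3p strands of let-7 and miR-98, 7 were negative and 2 positive (median -0.12). limma, the fit with the block, edgeR and DESeq2 called 0 at the fold threshold.

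The 2 tested miRNAs whose liver surface sheets all lay above all pelvic sheets (0.472% of 424) were both of this family, miR-98-5p and let-7b-5p. miR-98-5p stood at 1640, 1363, 1476, 1966 and 1585 RPM in liver surface sheets 1 to 5 and at 1013, 1264, 770, 1017 and 488 RPM in pelvic sheets 1 to 5. let-7b-5p stood at 4392, 6530, 4531, 4632 and 6059 RPM on the liver surface and at 3576, 4133, 2476, 3954 and 3059 RPM on the pelvic peritoneum. The gap between the sites was small for both, at 1264 to 1363 RPM for miR-98-5p and 4133 to 4392 RPM for let-7b-5p. Their log2 ratios were 0.87 (SE 0.33, adjusted p = 0.375 in limma, with the block 0.0689) and 0.61 (SE 0.28, adjusted p = 0.527 in limma, with the block 0.0865). The most abundant member, let-7i-5p, averaged 99751 RPM on the liver surface, against 78898 RPM on the pelvic peritoneum (log2 ratio 0.33, SE 0.25), higher in 5 of 5 numbered pairs.

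The Dlk1-Dio3 region of chromosome 12 is imprinted and its miRNAs are made from the maternal copy as part of long transcripts. A list of 55 miRNAs of the region does not hold all of them. Of these all had reads and 45 were tested. The log2 ratio was negative for 43 of the 45 (median -0.65, against -0.06 over all), where 56.1% of all tested miRNAs were negative. At an unadjusted p under 0.05, 10 were lower (5.42% of all tested), and 13 were lower on the liver surface in 5 of 5 numbered pairs (9.91% of all tested). limma called 0, the fit with the block 2 (1.18% of all tested were called lower) and DESeq2 3 (1.47% called lower). These miRNAs come from 1 region and are not independent of each other. On day 0 all 41 tested members were negative too (median -0.40, against -0.15 over all), where 245 of all 385 tested miRNAs were negative. The direction of the list was thus the same on both days. By RefSeq position 53 tested miRNAs lie in the span of the list, of which 49 were negative (median -0.62), and the list leaves out 11 of them (9 negative, 2 positive). The positive ones outside the list were miR-1193-3p at 0.49 and miR-679-5p at 0.10.

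**Figure D4:**
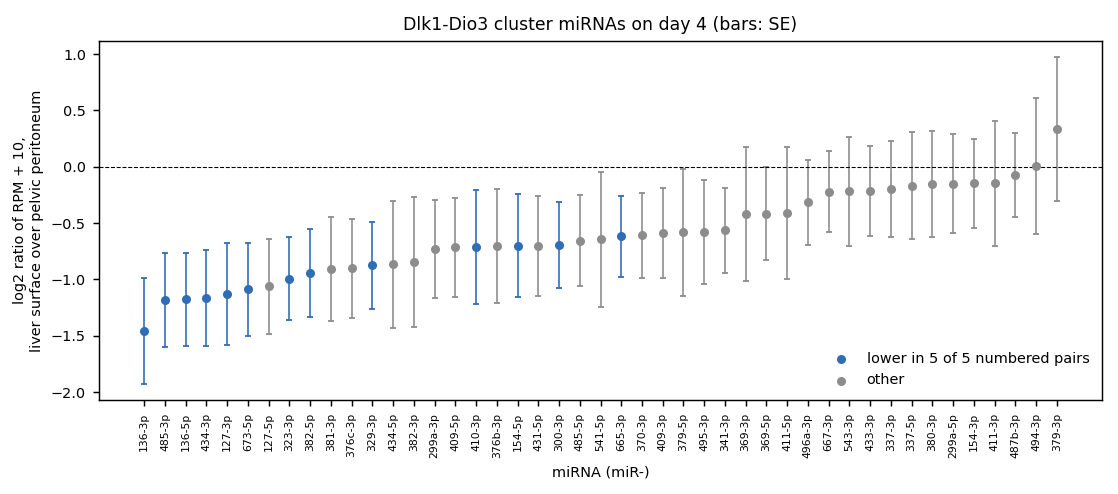
Log2 ratio of RPM + 10 (liver surface over pelvic peritoneum) on day 4 of the 45 tested miRNAs of the Dlk1-Dio3 list in order of size, with bars for the SE, in blue for the 13 that were lower on the liver surface in 5 of 5 numbered pairs. All but 2 of the 45 lie below 0, from -1.46 for miR-136-3p upwards.

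miR-136-3p stood at 115, 402, 369, 209 and 68.4 RPM in liver surface sheets 1 to 5 and at 776, 531, 679, 550 and 309 RPM in pelvic sheets 1 to 5. The sites overlapped through pelvic sheet 5, the lowest of its site, and sheet 5 was also the lowest on the liver surface. The log2 ratio of -1.46 (SE 0.47) had an adjusted p in limma of 0.375 and passed with the block (0.0467) and with DESeq2 (0.0497), in a range of 0.0467 to 1. miR-434-3p stood at 383, 615, 846, 306 and 179 RPM in liver surface sheets 1 to 5 and at 1244, 996, 1230, 872 and 509 RPM in pelvic sheets 1 to 5. Every liver surface sheet was the lower of its number (log2 ratio -1.17, SE 0.43, adjusted p = 0.375 in limma, with the block 0.0399, with DESeq2 0.0497).

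Further members by size were miR-485-3p (log2 ratio -1.18, SE 0.42), miR-136-5p (-1.18, SE 0.41) and miR-127-3p (-1.13, SE 0.45), of which DESeq2 called miR-136-5p and the block called 0. miR-127-3p, an abundant member made opposite the gene Rtl1, averaged 3118 ± 1175 RPM on the liver surface, against 7628 ± 5081 RPM on pelvic sheets (SD, n = 5 each). miR-3071-5p, which the list does not hold, lies at chr12:109595363-109595384 on the minus strand, opposite miR-136-3p at chr12:109595366-109595387 on the plus strand, and 19 of its 22 bases in a row pair with that miRNA. It stood at 17.3, 46.9, 56.8, 34.5 and 18.5 RPM in liver surface sheets 1 to 5 and at 134, 95.0, 166, 75.7 and 68.7 RPM in pelvic sheets 1 to 5, with no overlap of the sites. The log2 ratio was -1.42 (SE 0.39, adjusted p = 0.235 in limma, with the block 0.0399, with DESeq2 0.00649). Its level was 0.117 to 0.270 of that of miR-136-3p in 9 libraries, and whether reads of the same molecules count for both names cannot be told apart.

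The lowest p-value of all belonged to miR-6239, at chr14:117953768-117953787 on the minus strand, opposite an intron of Gpc6. It rested on few reads, 10 on the liver surface sheets and 77 on the pelvic sheets. Liver surface sheets 1 to 5 had 0, 1.51, 5.68, 11.0 and 1.85 RPM, and pelvic sheets 1 to 5 had 25.05, 14.6, 113, 95.5 and 124 RPM. The sites did not overlap, and pelvic sheets 1 and 2 were far below pelvic sheets 3 to 5. The log2 ratio of -2.34 (SE 0.47) had an adjusted p in limma of 0.0693, with the block 0.00504 and with DESeq2 0.000611 (range over all alternatives 0.000470 to 1). limma called it without replicate 2 (adjusted p = 0.0321), without liver surface sheet 4 (0.0428), and without pelvic sheet 1 (0.0364) or 2 (0.00757). On day 0 it had 0 to 3.799 RPM on the liver surface and 0 to 2.93 RPM on the pelvic peritoneum, and it was the second miRNA called in the test of site by day (-2.44, SE 0.52, adjusted p = 0.0233 in limma). That call ended at a pseudocount of 50 RPM, after scaling, in edgeR and when replicate 1, 3, 4 or 5 was left out, among other settings. Thinned to 132483 reads miR-6239 no longer reached the filter. In the full libraries it reached 10 RPM in every day 4 pelvic sheet and otherwise only in day 4 liver surface sheet 4 (11.0 RPM). It thus entered both tests through the group where it was high, and the filter favored these differences.

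Red blood cell miRNAs, which had the same direction as the hepatocyte miRNAs on day 0, did not on day 4. The 7 tested had a median log2 ratio of -0.32 on day 4 (5 negative, 2 positive) and 2.81 on day 0 (7 positive). Counts of this list hold repeats, since miR-486a-5p and miR-486b-5p had nearly the same values. Their 3p strands had similar log2 ratios on day 4 (-0.53 and -0.56). miR-451a stood at 23714, 39359, 42442, 46680 and 62012 RPM in liver surface sheets 1 to 5 and at 22234, 45135, 44104, 67317 and 84509 RPM in pelvic sheets 1 to 5. It was lowest in sheet 1 and highest in sheet 5 at both sites, and the sites overlapped. Its log2 ratio was -0.23 (SE 0.35, adjusted p = 0.947 in limma) on day 4 and 2.77 on day 0 (called there with the block, adjusted p = 0.0397 in limma, without it 0.412), a difference of -3.0 that did not pass (SE 1.38, unadjusted p = 0.0405, adjusted p = 0.706). Of the 7 members 5 had an unadjusted p under 0.05 for this difference, as did 6.28% of the 446 tested, and 0 were called.

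miR-126a-3p, which lies in Egfl7 and marks endothelium, averaged 977 ± 690 RPM on the liver surface, against 378 ± 102 RPM on pelvic sheets (SD, n = 5 each). Liver surface sheets 1 and 5, the same sheets that were highest in miR-122-5p, held 1638 and 1759 RPM, while sheets 3 and 4 held 460 and 229 RPM. The log2 ratio of 1.02 (SE 0.50, adjusted p = 0.544 in limma) on day 4 stood beside 2.34 on day 0 (called there with the block, adjusted p = 0.0466 in limma, without it 0.358), and the part of hepatocyte RNA in it was not tested.

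Muscle miRNAs, listed because the labels say diaphragm, were found at both sites and overlapped between them. The list summed to 1017 to 4454 RPM on the liver surface (median 1522) and 784 to 4932 RPM on the pelvic peritoneum (median 1395), and its 6 tested members had log2 ratios from -0.13 to 0.34. On day 0 the 6 tested were all positive (median 0.40). Which of the 2 names holds for these sheets was not tested. miR-1a-3p averaged 1155 RPM on the liver surface, against 961 RPM on the pelvic peritoneum, and miR-206-3p, a miRNA of skeletal muscle, 453 RPM on the liver surface, against 430 RPM on the pelvic peritoneum. Among leukocyte miRNAs, miR-142a-3p averaged 6264 RPM on the liver surface, against 5274 RPM on the pelvic peritoneum, and the 6 tested members had a median of -0.08. The 2 tested members of the liver and gut list, miR-192-5p and miR-194-5p, had log2 ratios of -0.01 and 0.13 (SE 0.43 and 0.42). This list had a median of 0.06 on day 4 and, over 3 tested, 0.56 on day 0. The 8 miRNAs tied to inflammation had a median of 0.02, the 8 epithelial ones -0.15 and the 5 of ovary and testis 0.37. In each of these lists 0 members had an unadjusted p under 0.05. Of the 8 epithelial members 5 were negative and 3 positive. Only 1, miR-203-3p, was lower on the liver surface in 5 of 5 numbered pairs, as 9.91% of all tested miRNAs were (log2 ratio -0.84, SE 0.43, adjusted p = 0.556 in limma). Of 6 pancreatic miRNAs 0 reached the filter, and miR-217-5p had 11 reads on the liver surface and 9 on the pelvic peritoneum.

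**Figure D5:**
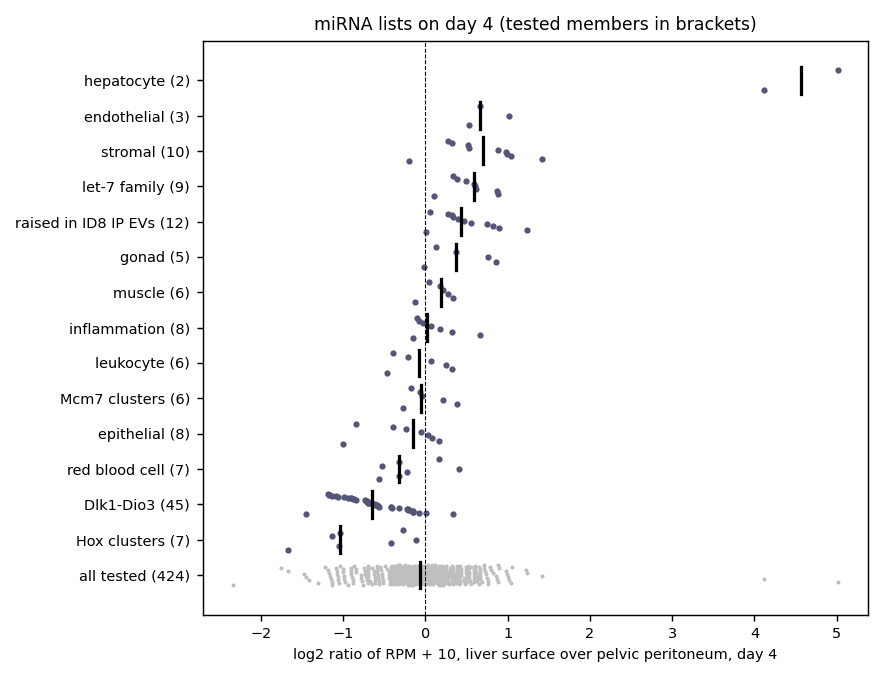
Log2 ratio of RPM + 10 (liver surface over pelvic peritoneum) on day 4 for the tested members of miRNA lists (points, number tested in brackets) and for all 424 tested miRNAs (bottom), with black bars for the medians. The liver and gut list and the list of 17 site miRNAs are not drawn. The 2 hepatocyte miRNAs stand apart on the right at 4.12 and 5.02, the let-7 and stromal lists have medians of 0.59 and 0.70, and the Hox and Dlk1-Dio3 lists have medians of -1.04 and -0.65, against -0.06 over all.

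A list of 17 miRNAs was taken from those named for the sites on sheets of this series. Of these 15 were tested on day 4. limma called 0, and at an unadjusted p under 0.05 there were 4 higher (miR-214-3p, miR-199a-5p, miR-31-5p and miR-335-5p) and 2 lower (miR-10b-5p and miR-10b-3p), where 4.01% of all tested miRNAs were higher and 5.42% lower at that level. The list was named from this series, so its direction is not independent evidence. miR-31-5p stood at 348, 639, 619, 314 and 564 RPM in liver surface sheets 1 to 5 and at 214, 592, 113, 148 and 131 RPM in pelvic sheets 1 to 5. Pelvic sheet 2 stood with the liver surface sheets and above the other pelvic sheets, and the log2 ratio was 1.24 (SE 0.45, adjusted p = 0.375 in limma). miR-335-5p, encoded in the gene Mest, averaged 49.3 ± 30.0 RPM on the liver surface, against 18.7 ± 11.8 RPM on pelvic sheets (SD, n = 5 each). Its log2 ratio was 1.01 (SE 0.41, adjusted p = 0.421 in limma), with every liver surface sheet the higher of its number.

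Tumor-related miRNAs showed no called site difference. A list of 12 miRNAs, taken from those higher in EVs of mice with ID8 cells injected into the peritoneal cavity in other libraries of the series, had 12 positive log2 ratios (median 0.44), as 43.9% of all tested miRNAs did (median -0.06). Of these 2 were higher at an unadjusted p under 0.05 (4.01% of all tested), and 1 of the 12 was negative when hepatocyte and red blood cell miRNAs were left out of the RPM total. The 6 miRNAs of the Mcm7 gene and related clusters had a median of -0.05 on day 4 and 0.83 on day 0.

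The library names hold a code, of unstated meaning, that puts replicates 1, 3 and 4 in 1 series and replicates 2 and 5 in another, and both sites are in each. Within the first and the second series the log2 ratio was 4.82 and 5.32 for miR-122-5p, -1.82 and -1.46 for miR-10b-5p, -1.15 and -0.90 for miR-10a-5p and -0.22 and -0.34 for miR-196a-5p. The same values were -1.62 and -1.21 for miR-136-3p, -2.37 and -2.30 for miR-6239, 1.35 and 1.54 for miR-214-3p and 0.85 and 0.89 for miR-98-5p. Within each series limma called 0. Of the 16 lists with tested members, 4 had medians of opposite sign in the series, which were those of liver and gut, leukocytes, inflammation and the Mcm7 clusters. The medians of the lists described at length had the same sign in both, with -1.15 and -0.57 for the Hox clusters, -0.65 and -0.57 for the Dlk1-Dio3 region, 0.80 and 0.85 for the stromal list and 0.38 and 0.82 for the let-7 family, against -0.08 and -0.05 over all tested.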

How the data were processed

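Small RNA-seq libraries of CNF sheet EVs were grouped by the site and day in the labels. Values are deposited as RPM, which sum to 1e+06 per library. The authors had cut adapters off in CLC Genomics Workbench 9.5.3 and matched the reads to miRBase 22, where 2 mismatches were tolerated. How reads that match several miRNAs were assigned is not given in the sources used here. All values (100%, tolerance 0.001) were whole multiples of the smallest value of their library, so whole reads were recovered, with the smallest value taken as 1 read. No day 4 library repeated another (45 pairs compared).

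limma 3.58.1 (trend, two-sided, R 4.3.3) compared log2(RPM + 10), which understates changes of low miRNAs, with Benjamini-Hochberg adjustment. A pair of groups was tested at 10 RPM in 5 of 10 libraries, and site by day at 10 RPM in 5 of 20. edgeR 4.0.16 and DESeq2 1.42.0 on recovered reads, the replicate block, pseudocounts of 1 and 50 RPM, filters of 0 or 100 RPM, scaling, series and left-out libraries were alternatives. The authors used DESeq2 1.30.0. Same-numbered residuals of the sites correlated at 0.119 to 0.737 on day 4 (4 of 5 best with their own number) and 0.397 to 0.704 on day 0, so numbers were taken as pairs within a day. In site by day the block joined sheets of 1 number on both days, a likeness that was not tested.

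The comparison, lists and tests were chosen with earlier results of these data known. The text names a part of the miRNAs given by this rule: called ones, the 10 lowest p-values, the 2 most abundant of each list, the 17 site miRNAs of the study, the 5 most abundant and the interaction calls. miR-434-3p, miR-98-5p, let-7b-5p and miR-10a-3p were added after their values were seen. The day 4 fits were also run on simulated counts, drawn independently for each library. These counts held no effect of the replicate number, so they do not test what the block adds. Sequences and positions are from RefSeq (GRCm38.p6) and gene models from GENCODE M21.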

Additional observations from a re-analysis of the deposited data

Results flagged for a closer look

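On the pelvic peritoneum on day 4, miR-122b-3p stood at 268 RPM in sheet 5 (39 reads), a sheet far from the rest of its group. The other 4 sheets had 1 read each, at 2.44 to 7.55 RPM. The gap was 0.889 of the range on the log2 scale. The same sheet was the highest pelvic one for miR-122-5p. Of 58 groups looked at in this way 1 was flagged, where chance alone flags about 5%.

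In the comparison of the site difference between days, miR-196a-5p differed by 3.50 (day 4 minus day 0, log2 scale, limma adjusted p = 0.0103), since it was far lower on the liver surface than on the pelvic peritoneum on day 0 and nearly level on day 4. miR-6239 differed by -2.44 (limma adjusted p = 0.0233), being lower on the liver surface than on the pelvic peritoneum on day 4 and near 0 RPM at both sites on day 0. It passed the filter through the day 4 pelvic sheets where it was high, which favored this difference.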

How the results depend on the processing

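On day 4 the counts called higher and lower (0 and 0 in limma) stayed at 0 and 0 with pseudocounts of 1 and 50 RPM, with the filter dropped or set to 100 RPM, after median-of-ratios scaling, in edgeR, with the library series as a covariate or alone, for RPM without hepatocyte and red blood cell miRNAs, and in thinned libraries, a setting chosen after seeing the data. They were 3 and 6 with DESeq2, 2 and 5 with the replicate block, 0 and 1 with all 20 orthotopic libraries in 1 fit and 2 and 2 with the replicate block in edgeR, also chosen after seeing the data. With replicates or single libraries left out they were 0 to 2 and 0 to 1, the calls being miR-122-5p, miR-122b-3p, miR-10b-5p and miR-6239. On day 0 limma called 3 higher and 3 lower, DESeq2 11 and 5, the replicate block 16 and 5, and fits without a replicate 2 to 4 and 2 to 4. The site by day count of 2 was 1 with a pseudocount of 50 RPM, no filter, a filter of 100 RPM, scaling or edgeR, 2 with the replicate block, 3 with DESeq2 or a pseudocount of 1 RPM and 0 to 2 without a replicate. The calls that the block added on day 4 and on day 0 are named beside the results. The cause of these differences was not tested.

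Of 29 miRNAs under 30 settings on day 4, the direction turned for 2. miR-196b-5p (-0.12) was 0.077 in edgeR, 0.0104 in DESeq2 and -0.45 to 0.13 with libraries left out, and miR-196a-5p (-0.27) was -0.50 to 0.0207 with libraries left out. In the site by day difference miR-10b-5p (0.05) was -0.0365 after scaling and -0.38 to 0.44 without a replicate, and miR-10a-5p (-0.20) was -0.43 to 0.0871 without a replicate. The median over all tested miRNAs on day 4 was -0.06 without and -0.01 with scaling. Depth limits the day 4 comparison, as 10 RPM is 1.32 to 6.62 reads, and the pelvic libraries were the shallower ones. All day 4 libraries were shallower than those of day 0, so depth cannot be told apart from day.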
